A study of Mus musculus with 8 samples.

Results

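The proteasome genes described here code for the subunits, assembly chaperones and activators that make up the constitutive proteasome, the form present in every cell. They were taken as all genes whose only platform symbol begins with Psma, Psmb, Psmc, Psmd, Psme or Psmg and a digit, without the interferon-induced Psmb8, Psmb9, Psmb10 and Psme1. This rule uses names and no measured difference, and it gave 42 of the 8251 genes with a symbol of their own. Where a gene had several probe sets, the one with the largest mean stands for it. The rule also took in Psmc3ip and Psme3ip1, which are named after proteins they bind and are no subunits. Psme2 shares its 2 probe sets with Psme2b and was not analysed here by name, and no probe set was matched to Psma8 or Psmb11.

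Whole pancreas was taken at an age of 3 weeks, and 2 Affymetrix arrays were hybridised for each of 4 groups. NOD mice are an inbred strain prone to autoimmune diabetes, and NOD.scid mice carry in addition the scid mutation of Prkdc, which blocks the formation of antigen receptors. The transgenic group BDC2.5/NOD carries the T cell receptor genes of a CD4 T cell clone that attacks islets, and BDC2.5/NOD.scid carries both that transgene and the scid mutation. All groups share the NOD background, the labels name no further allele or agent, and RNA was pooled from animals (2 isolations of 6 animals each), so no value belongs to a single mouse. The labels do not say whether both arrays of a group used the same pool, so the p-values measure only the spread between arrays, which may be technical.

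The proteasome is the main protease of the cytosol and nucleus. Its barrel-shaped core particle has outer rings of alpha subunits, which gate the entrance, and inner rings of beta subunits, some of which cut peptide bonds. A regulatory particle, built from a base with ATPases and a lid, caps the barrel, takes up proteins tagged with ubiquitin, removes the tag, unfolds them and feeds them in. Under interferon gamma the catalytic beta subunits are replaced in newly built particles by Psmb8, Psmb9 and Psmb10, which gives the immunoproteasome. The acinar cells that fill the pancreas make large amounts of secreted protein, and faulty chains are sent back from the endoplasmic reticulum to the proteasome.

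Differences between groups were tested with limma on all 8 arrays, with p-values adjusted over the 12422 probe sets tested, and a gene was called at an adjusted p under 0.05. All values are log2 values as deposited, and all differences are between mean log2 values of 2 arrays. The array medians lay between 4.24 and 4.30. The acinar list (6 of 11 genes measured, digestive enzymes and zymogen proteins) averaged 12.70 to 12.91 on the 8 arrays, as the tissue label states. The lists for T cells (7 genes, 4.84 to 4.98) and B cells (4 genes, 4.84 to 5.16) did not part the scid arrays from the others. The middle actin control read 9.26 to 9.55 on 3 arrays, which were replicate 2 of BDC2.5/NOD.scid and replicate 1 of both NOD and NOD.scid, and 6.95 to 7.74 on the other 5. The BioB hybridization control read 7.02 and 7.06 on the BDC2.5/NOD arrays against 5.89 to 6.45 elsewhere. A technical difference of that pair cannot be told apart from the transgene in NOD, from scid with the transgene or from the interaction.

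The median range of the 42 proteasome genes over the 8 arrays was 0.48, against 0.40 for all genes. Across the 5 comparisons 10 genes (23.8%) were called at least once and 32 never, against 18.2% of all genes called at least once. These 10 genes gave 15 calls in all, 14 of them downward. Over all genes the 5 comparisons gave 1646 calls downward and 1080 upward, so 60.4% were downward, against 93.3% for the proteasome genes. The comparisons reuse the same 8 arrays and some genes were called more than once, so these calls are not independent of each other. The median SE of a difference was 0.102 and the largest 0.172. In the comparisons of 2 groups, the 95% interval of the difference lay within 1 log2 unit of 0 for 41 or 42 of the 42 genes. The 6 genes with a mean below the median of all values (4.27) were Psma1, Psmc4, Psmd10, Psmd14, Psmg2 and Psmc3ip. The deposited values carry no detection calls, so differences of these 6 may be understated.

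**Figure D1:**
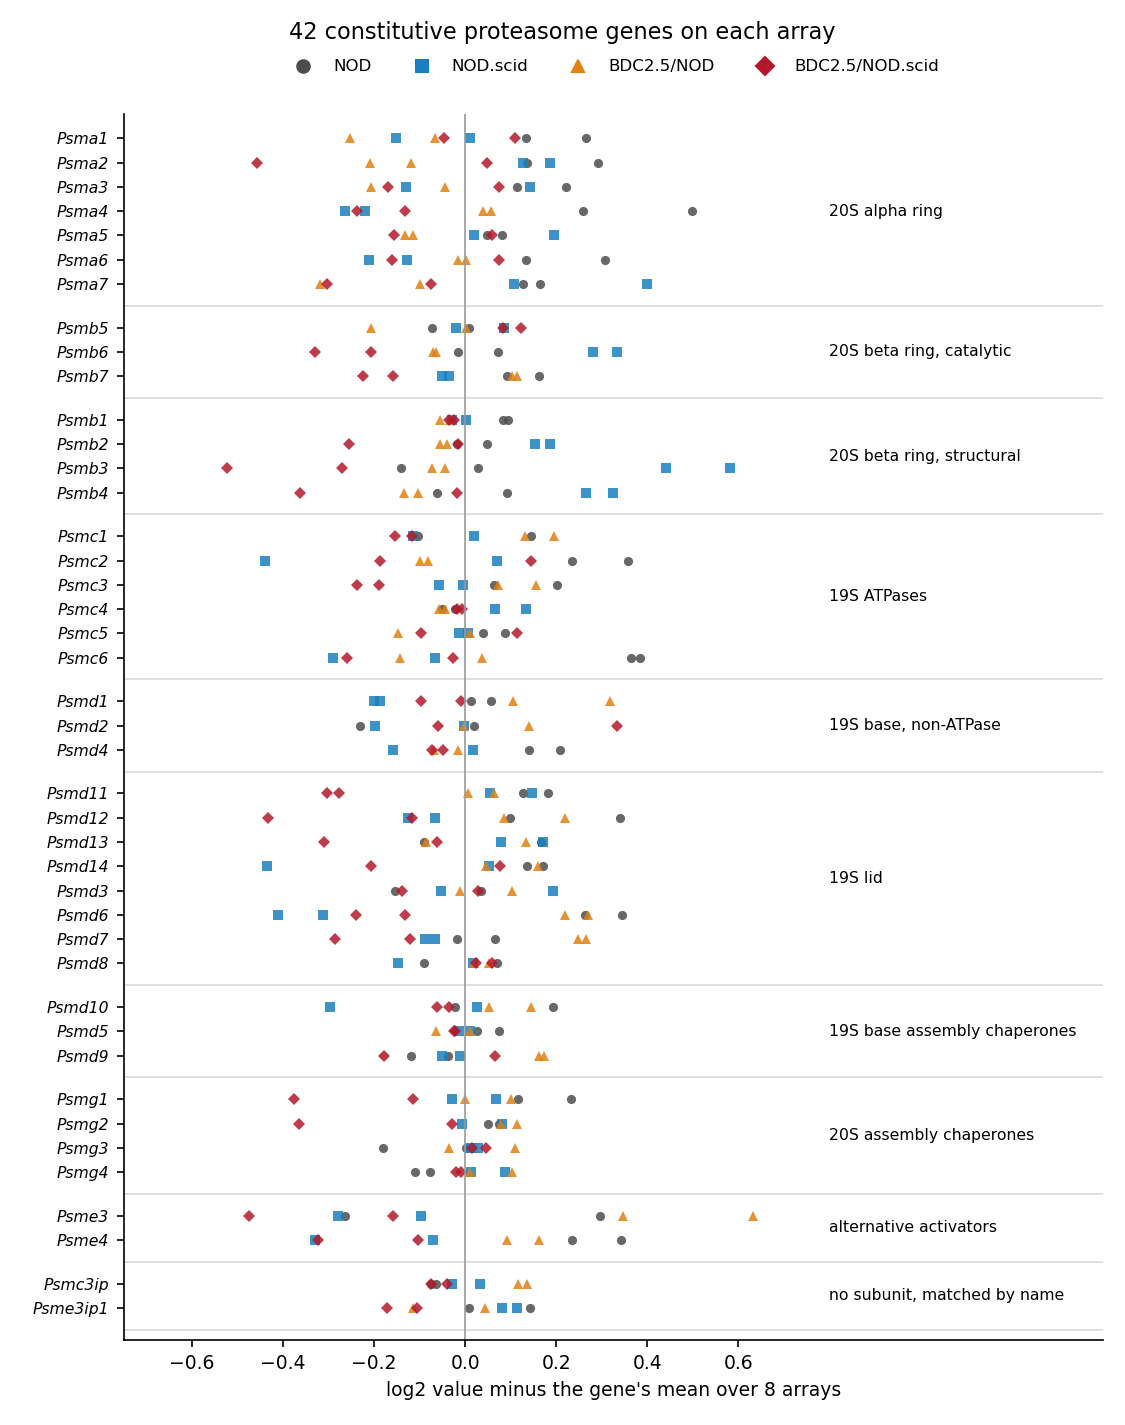
Each row is 1 gene and each point 1 array: the horizontal axis gives the log2 value minus the gene's mean over 8 arrays, with NOD as circles, NOD.scid as squares, BDC2.5/NOD as triangles and BDC2.5/NOD.scid as diamonds, grouped by role. Psmb3 and Psme3 spread over 1.11 log2 units, while Psmd5 stays within 0.14 and Psmb1 within 0.15.

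With the transgene in NOD.scid mice (BDC2.5/NOD.scid minus NOD.scid), 4 proteasome genes fell and 0 rose. They were the beta subunits Psmb3, Psmb6 and Psmb4 and the lid subunit Psmd11. That is 9.52% of the 42 genes, where 4.51% of all genes were called lower and 2.46% higher. At an unadjusted limma p under 0.05, 10 were lower and 0 higher, that is 23.8% and 0%, against 11.7% and 6.99% of all genes. The median of the 42 differences was -0.06 against -0.01 for all genes. Leaving out replicate 2 of BDC2.5/NOD.scid or replicate 1 of NOD.scid left 2 calls, Psmb3 and Psmb6.

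With the transgene in NOD mice (BDC2.5/NOD minus NOD), 1 proteasome gene fell, the ATPase Psmc6, and 0 rose. That is 2.38% of the genes, below the 4.56% of all genes called lower, and 4.16% of all genes were called higher. Unadjusted, limma gave 9 lower and 3 higher at p under 0.05, or 21.4% and 7.14%, against 11.4% and 13.7% of all genes. The median difference was -0.06 against 0.04 for all genes. The call was lost with a term for the title number (0 calls) and without either array of BDC2.5/NOD or of NOD. Without NOD replicate 1 a different gene was called instead, and upward.

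In scid mice without the transgene (NOD.scid minus NOD), 4 proteasome genes fell and 1 rose. Psmd6, Psma4, Psmc6 and Psme4 were lower and Psmb3 was higher. The share called lower was 9.52% against 1.9% of all genes, and the share called higher was 2.38% against 0.824%. At an unadjusted limma p under 0.05, 11 were lower and 3 higher, or 26.2% and 7.14%, against 8.4% and 7.24% of all genes. The median difference was -0.06 against 0.03 for all genes. The count was 1 without NOD.scid replicate 2 or NOD replicate 2, 2 without NOD replicate 1, and 3 without either BDC2.5/NOD array.

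In scid mice with the transgene (BDC2.5/NOD.scid minus BDC2.5/NOD), 4 proteasome genes fell and 0 rose. They were Psme3, an activator of the nuclear proteasome, and the lid subunits Psmd7, Psmd6 and Psmd11. The share called lower was 9.52% against 6.08% of all genes, while 3.16% of all genes were called higher. Unadjusted, limma gave 16 lower and 0 higher at p under 0.05, or 38.1% and 0%, against 14.5% and 7.88% of all genes. The median difference was -0.10 against -0.02 for all genes. The count was 0 without BDC2.5/NOD replicate 1, and 1 without BDC2.5/NOD replicate 2 or BDC2.5/NOD.scid replicate 2. The 2 scid comparisons take their group means from different arrays, and Psmd6 was called lower in each. Both tests share 1 estimate of the spread, made from all 8 arrays.

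The interaction asks whether the effect of the transgene differed between NOD.scid and NOD, and it called Psmb3 alone, as lower. That is 2.38% of the genes, against 2.9% of all genes called lower and 2.48% called higher. Unadjusted, limma gave 6 lower and 5 higher at p under 0.05, or 14.3% and 11.9%, against 11.1% and 6.99% of all genes. The median was -0.09 against -0.04 for all genes. Psmb3 kept its call without each array in turn, and the count rose to 2 without BDC2.5/NOD.scid replicate 1 or NOD.scid replicate 1.

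**Figure D2:**
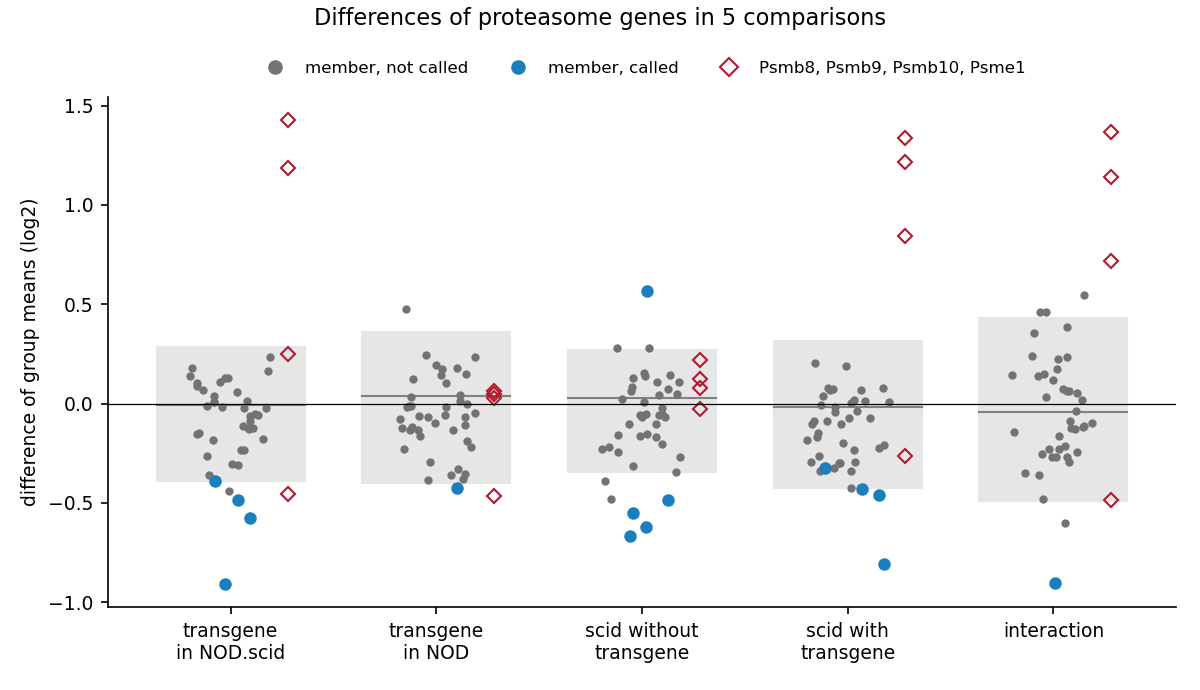
For each of the 5 comparisons on the horizontal axis, the vertical axis gives the difference of group means in log2: small grey points are proteasome genes not called, large filled points those called, and open diamonds the left-out genes Psmb8, Psmb9, Psmb10 and Psme1. The grey box runs from the 5th to the 95th percentile of all genes and the line in it marks their median. Psmb3 lies at -0.91 both for the transgene in NOD.scid and for the interaction, and Psmb8 and Psmb9 lie above 1 in 3 comparisons.

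The inner rings held the largest difference of any proteasome gene. Psmb3, a structural beta subunit that does not cut peptides itself, read 8.07 and 8.21 in NOD.scid, 7.48 and 7.65 in NOD, 7.58 and 7.55 for BDC2.5/NOD, and 7.35 and 7.10 in BDC2.5/NOD.scid. Both NOD.scid arrays lay above all others, both BDC2.5/NOD.scid arrays lay below all others, and the other 2 groups overlapped. With the transgene Psmb3 was 1.88-fold lower in NOD.scid (log2 difference -0.91, SE 0.104, adjusted p = 0.000176). In NOD the same comparison gave -0.0025 (95% interval -0.23 to 0.22). The difference between these effects was -0.91 (SE 0.148, adjusted p = 0.00401). Without the transgene, scid mice were 1.48-fold above NOD (log2 difference 0.57, adjusted p = 0.0142), a call lost without either NOD array or NOD.scid replicate 2.

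Psmb6, the catalytic subunit that cuts after acidic residues, had the same highest and lowest groups. It read 6.84 and 6.89 in NOD.scid, 6.54 and 6.63 in NOD, 6.49 and 6.50 for BDC2.5/NOD, and 6.35 and 6.23 in BDC2.5/NOD.scid. No group overlapped another. In NOD.scid mice the transgene group was 1.49-fold lower (-0.58, SE 0.0886, adjusted p = 0.00162), and in NOD the difference was -0.10 (adjusted p = 0.57). The interaction, -0.48, fell just outside the threshold (adjusted p = 0.0507).

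Psmb4, a structural subunit, read 7.93 and 7.99 in NOD.scid, 7.60 and 7.75 in NOD, 7.53 and 7.56 for BDC2.5/NOD, and 7.64 and 7.30 in BDC2.5/NOD.scid. The NOD.scid arrays were again the highest, and BDC2.5/NOD.scid overlapped NOD and BDC2.5/NOD, which did not overlap each other. The transgene made a difference of -0.49 in NOD.scid (SE 0.111, adjusted p = 0.0198). The other 2 probe sets of Psmb4 gave 0.04 and -0.09 and were not called. Their means over the arrays were 5.02 and 2.47. The call was lost with the 3 sets averaged, with only the arrays of the groups compared, and without BDC2.5/NOD.scid replicate 2 or either NOD.scid array. The set that represents Psmb4 carries the suffix _f, which in Affymetrix naming marks probes that match several related sequences, and so do those of Psma3, Psmb7, Psmc3 and Psmd12. What else they read was not tested.

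The remaining beta subunits were not called in any comparison. Psmb2, a structural subunit, differed by -0.31 with the transgene in NOD.scid (adjusted p = 0.101). Its NOD.scid arrays, at 6.27 and 6.24, were also the highest of the 8. Psmb1, another structural subunit, was the flattest of the beta genes, with a range of 0.15 over the arrays. Psmb7, the catalytic subunit that cuts after basic residues, read 5.57 and 5.65 in NOD, 5.43 and 5.45 in NOD.scid, 5.60 and 5.59 for BDC2.5/NOD, and 5.26 and 5.33 in BDC2.5/NOD.scid. Its lowest group was also BDC2.5/NOD.scid, with a difference of -0.30 from BDC2.5/NOD (adjusted p = 0.0601).

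Psmb5, the catalytic subunit that cuts after hydrophobic residues, gave a different answer from each of its probe sets. The set that represents it read 5.79 and 5.70 in NOD, 5.86 and 5.76 in NOD.scid, 5.78 and 5.57 for BDC2.5/NOD, and 5.90 and 5.86 in BDC2.5/NOD.scid. On this set the transgene in NOD.scid made a difference of 0.07 (95% interval -0.15 to 0.29). The other set, whose suffix _s marks probes shared by more than 1 transcript, read 6.34 and 5.87 in NOD.scid and 5.37 and 5.25 in BDC2.5/NOD.scid, with 5.61 to 5.91 on the 4 arrays of the other groups. Here the difference was -0.80 (SE 0.15, adjusted p = 0.00627) and the interaction -0.82 (adjusted p = 0.0471). The 2 sets have similar means, 5.78 and 5.73, so the choice by highest mean rests on little, and the level of Psmb5 with the transgene in NOD.scid is unsettled.

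Marker genes of several other cell types differed between the same groups as these beta subunits. The erythrocyte list (4 of 6 genes measured: Hbb-b2, Hba-a1, Alas2 and Hemgn) averaged 7.78 to 7.87 in NOD.scid, against 6.20 to 6.62 on the other 6. All 4 genes were called higher in NOD.scid than in NOD, and all 4 lower with the transgene in NOD.scid. The neutrophil list (6 of 6 measured) averaged 5.81 on both NOD.scid arrays and 4.29 to 4.71 elsewhere, with 6 of 6 called higher in NOD.scid than in NOD and 5 of 6 lower with the transgene there. The macrophage and dendritic cell list (9 of 9 measured) averaged 5.94 to 6.09 in BDC2.5/NOD.scid and 5.09 to 5.36 elsewhere, with 6 of 9 called higher with the transgene in NOD.scid. The beta cell list (5 of 6 measured) had the same highest and lowest groups as Psmb3, at 5.56 to 5.63 in NOD.scid and 4.90 to 5.03 in BDC2.5/NOD.scid, with 5.20 to 5.51 between them, and 2 of 5 were called lower with the transgene in NOD.scid. The other islet endocrine list (5 of 6 measured) averaged 5.88 to 5.89 in NOD.scid and 5.32 to 5.49 in BDC2.5/NOD.scid, with 2 of 5 called lower there. The stroma and endothelium list (8 of 8 measured) averaged 6.08 to 6.11 and 5.82 to 5.89 in these groups, with 4 of 8 called lower. The duct list (6 of 8 measured) averaged 5.76 to 5.79 in NOD.scid and 5.20 to 5.39 elsewhere, with 1 of 6 called lower with the transgene there. Its differences between NOD.scid and NOD had a median of 0.04 and a maximum of 2.63, so the mean does not stand for the whole list. With the transgene in NOD.scid the median was -0.19 and the minimum -2.64. The leukocyte list (6 of 6 measured) averaged 5.46 to 5.55 in BDC2.5/NOD.scid and 4.77 to 5.04 elsewhere, with 3 of 6 called higher. No marker read 0, and the lowest erythrocyte marker outside NOD.scid was Hemgn, at group means of 2.48 to 2.67. For the genes that were lower in NOD.scid than in NOD (Psmd6, Psma4, Psmc6 and Psme4), the erythrocyte and neutrophil lists differed in the opposite direction. The part of these cells in the proteasome values was not tested. In whole tissue, fewer cells of a type and less RNA per cell cannot be told apart. Of NOD.scid and of BDC2.5/NOD.scid, 1 array each had a low and 1 a high actin control. Between these single arrays (low, then high), Psmb3 differed with the transgene by -0.85 and -0.97, Psmb6 by -0.54 and -0.61, and Psmb4 by -0.34 and -0.63.

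**Figure D3:**
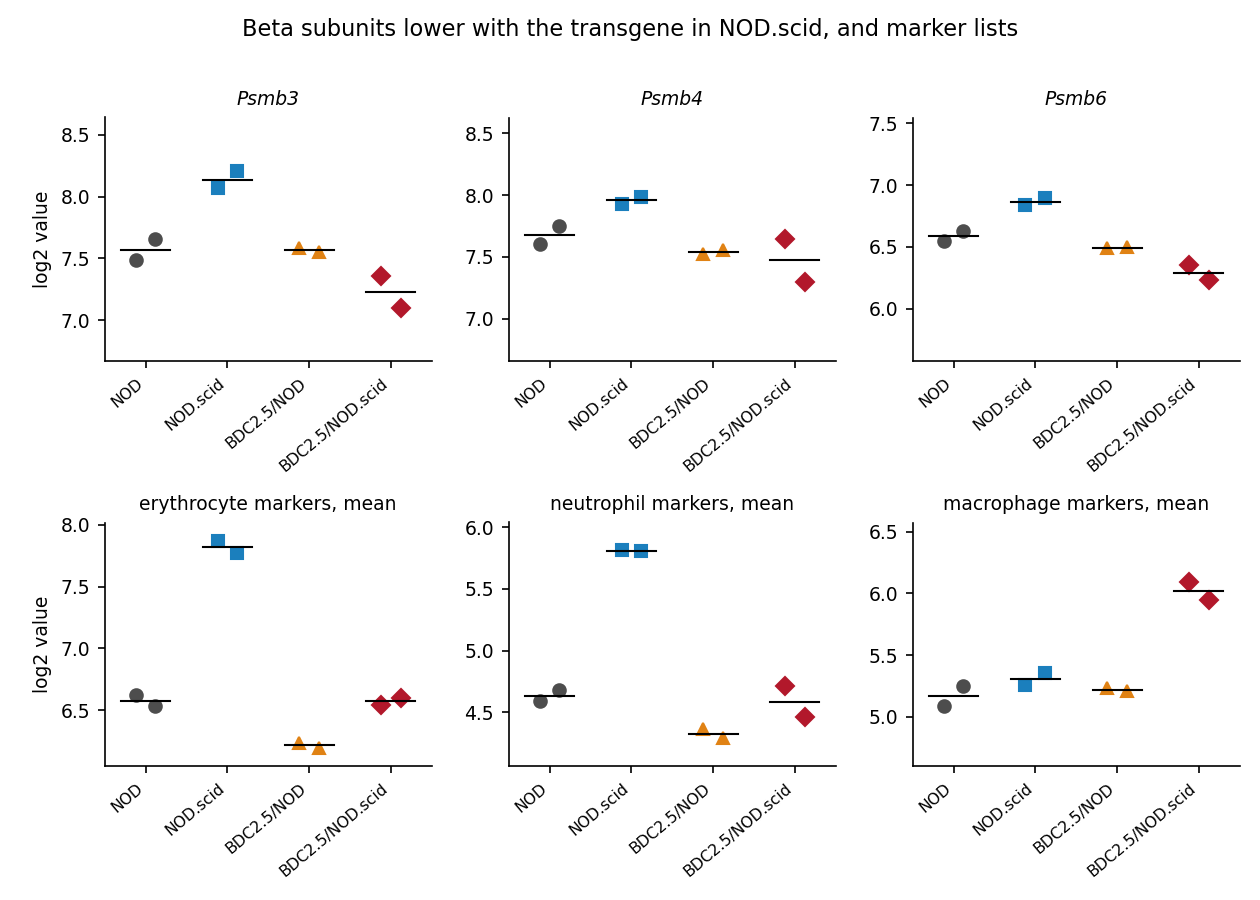
The upper panels give the log2 value of Psmb3, Psmb4 and Psmb6 on each array by group, and the lower panels the mean log2 value of the erythrocyte, neutrophil and macrophage marker lists. Points are arrays, bars are means of 2 arrays, and every panel spans the same number of log2 units, though not the same range. The NOD.scid arrays are highest in the upper panels and in the erythrocyte and neutrophil panels, and BDC2.5/NOD.scid is highest for macrophage markers.

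The 250 bases before the start of Psmb3, Psmb4 and Psmb6 are shown because each of these subunits was lower with the transgene in NOD.scid, with those of Psmb9, the interferon-induced counterpart of Psmb6, beside them. They are RefSeq sequences on the GRCm38.p6 build, written 5′ to 3′ on the gene's strand, at chr11:97703184-97703433 (plus strand) for Psmb3, chr3:94886959-94887208 (minus) for Psmb4, chr11:70525107-70525356 (plus) for Psmb6 and chr17:34187331-34187580 (minus) for Psmb9. Capitals mark matches, on either strand, to one of 4 motifs: the antioxidant response element core TGACNNNGC, the CCAAT box, the gamma-activated site TTCNNNGAA and the interferon-stimulated response element, searched as GAAA, any 2 bases and GAAA. No marked matches overlap.
Psmb3: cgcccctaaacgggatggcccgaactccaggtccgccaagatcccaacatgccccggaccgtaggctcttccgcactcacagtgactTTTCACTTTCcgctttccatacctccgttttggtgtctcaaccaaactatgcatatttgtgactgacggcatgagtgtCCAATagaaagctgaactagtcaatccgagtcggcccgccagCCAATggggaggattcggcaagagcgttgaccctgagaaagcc
Psmb4: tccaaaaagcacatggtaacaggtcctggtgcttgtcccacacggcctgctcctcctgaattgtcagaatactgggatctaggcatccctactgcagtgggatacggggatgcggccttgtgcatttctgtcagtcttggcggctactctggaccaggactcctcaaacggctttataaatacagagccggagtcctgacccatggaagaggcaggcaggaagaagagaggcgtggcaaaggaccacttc
Psmb6: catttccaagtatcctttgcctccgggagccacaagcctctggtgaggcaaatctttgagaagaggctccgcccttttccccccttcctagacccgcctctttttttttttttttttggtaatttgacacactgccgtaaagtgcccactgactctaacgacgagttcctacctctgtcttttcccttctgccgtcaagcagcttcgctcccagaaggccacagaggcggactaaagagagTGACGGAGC
Psmb9: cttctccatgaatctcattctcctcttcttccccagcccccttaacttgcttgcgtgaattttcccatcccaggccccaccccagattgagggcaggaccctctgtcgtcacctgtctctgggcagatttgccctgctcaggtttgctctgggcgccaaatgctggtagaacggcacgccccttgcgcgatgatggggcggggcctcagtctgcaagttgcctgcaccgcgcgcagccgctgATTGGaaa

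The 3 promoters did not share a match. Psmb3 held the interferon-stimulated element on the reverse strand at -163 and CCAAT at -85 and -43, counted to the first marked base. Psmb6 held TGACNNNGC at -9, Psmb9 held CCAAT on the reverse strand at -8, and Psmb4 held none of the 4. Of the 35 proteasome genes with a promoter entry, TGACNNNGC occurred in 5 (14.3%, against 11.5% of 27025 genes), CCAAT in 14 (40% against 37.5%), TTCNNNGAA in 1 (2.86% against 8.13%) and the interferon-stimulated element in 3 (8.57% against 3.46%). The genes with TGACNNNGC were Psmb5, Psmb6, Psmc6, Psmd9 and Psmd12. Those with the interferon-stimulated element were Psmb3, Psmd4 and Psmd9. A match describes the letters only.

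The left-out interferon-induced subunits can be set beside the catalytic subunits they replace. Psmb8, which takes the place of Psmb5, read 5.30 and 5.75 in BDC2.5/NOD.scid, against 4.01 to 4.23 on the other 6 arrays. With the transgene in NOD.scid it rose by 1.43 (adjusted p = 4.13e-05), beside 0.07 and -0.80 for the probe sets of Psmb5. Psmb9, which takes the place of Psmb6, read 5.53 and 5.65 in BDC2.5/NOD.scid against 4.20 to 4.50 elsewhere, and it rose by 1.19 (adjusted p = 4.5e-05) beside -0.58 for Psmb6. Psmb10, which takes the place of Psmb7, did not follow them: it read 7.52 and 7.63 in NOD.scid and 7.22 and 7.02 in BDC2.5/NOD.scid, and it fell by 0.46 (adjusted p = 0.0107), beside -0.15 for Psmb7 (adjusted p = 0.449). The NOD.scid arrays were the highest and the BDC2.5/NOD.scid arrays the lowest for Psmb10, the same order of extremes as for Psmb3 and Psmb6. Differences between the pairs were not tested. Leukocyte markers were also highest in BDC2.5/NOD.scid, at 5.46 to 5.55 against 4.77 to 5.04 elsewhere. Macrophage and dendritic cell markers averaged 5.94 to 6.09 there and 5.09 to 5.36 elsewhere. The part of these cells in the values of Psmb8 and Psmb9 was not tested.

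**Figure D4:**
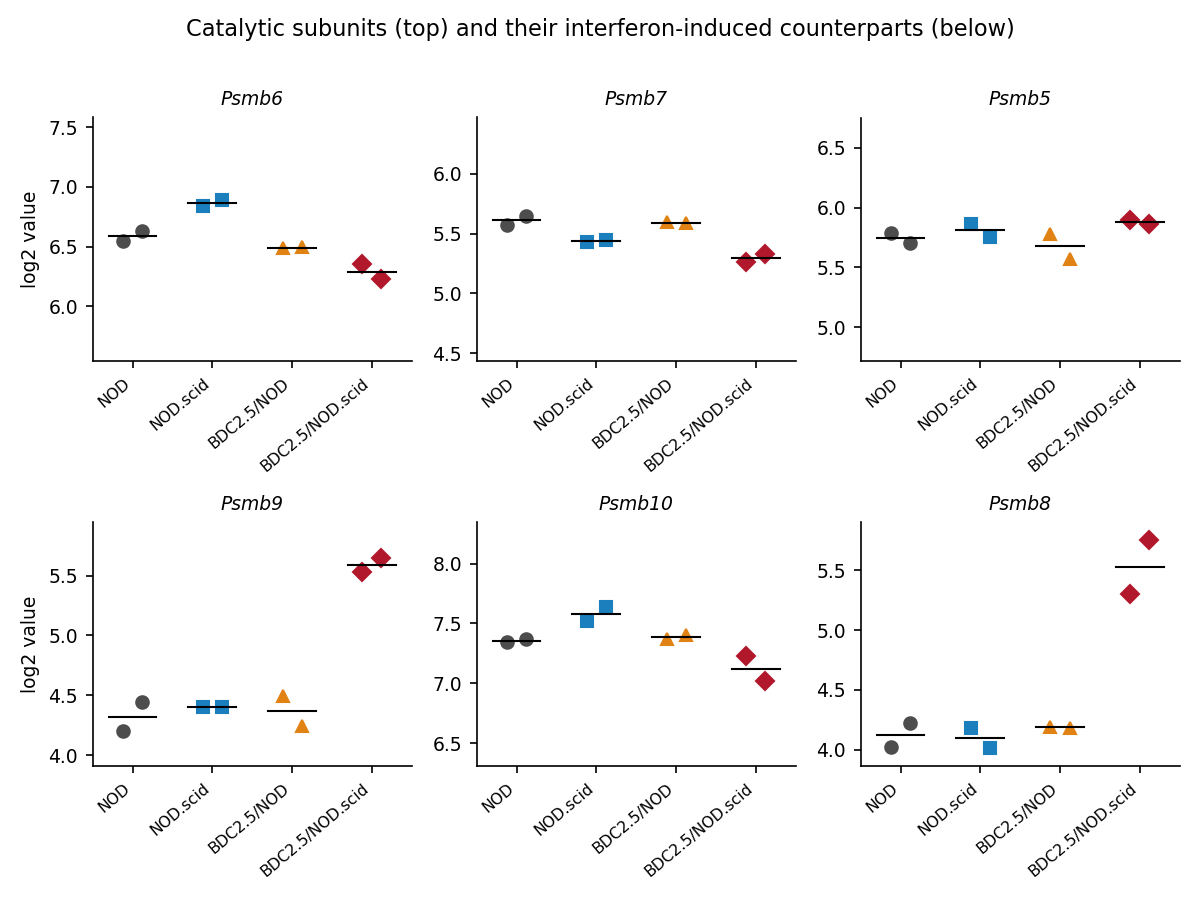
The upper panels give the log2 value on each array by group for the catalytic subunits Psmb6, Psmb7 and Psmb5, and the panel under each gives the interferon-induced subunit that replaces it. Points are arrays, bars are means of 2 arrays, every panel spans the same number of log2 units, and Psmb5 is shown by its representative probe set. Psmb9 and Psmb8 are highest in BDC2.5/NOD.scid, where Psmb6, Psmb7 and Psmb10 are lowest.

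The outer rings gave 1 call, for Psma4. In BDC2.5/NOD against NOD, all 7 alpha subunits lay below 0, at -0.38 to -0.19 with a median of -0.33, and none was called by limma (6 had an unadjusted p under 0.05, all lower). The BioB control of the BDC2.5/NOD arrays stood apart. Of all genes, 42.2% lay below 0 in BDC2.5/NOD against NOD, and 11.4% were lower at an unadjusted limma p under 0.05. Between these groups the stroma and endothelium markers averaged 5.56 to 5.61 with the transgene and 6.18 to 6.20 without it (5 of 8 called lower), and the beta cell markers 5.20 to 5.22 and 5.46 to 5.51 (3 of 5 called lower). Their part in the alpha subunits' values was not tested. Psma4 read 6.13 and 6.37 in NOD, 5.65 and 5.61 in NOD.scid, 5.93 and 5.91 for BDC2.5/NOD, and 5.74 and 5.63 in BDC2.5/NOD.scid. The NOD arrays were the highest, and the scid groups, which overlapped, were the lowest. Psma4 was 1.54-fold lower in NOD.scid than in NOD (-0.62, SE 0.101, adjusted p = 0.00673), a call lost without NOD.scid replicate 2 (NOD replicate 2 likewise).

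The other alpha subunits had their highest group mean in NOD or NOD.scid. Psma7 differed by -0.44 with the transgene in NOD.scid, just outside the threshold (adjusted p = 0.0505), and by -0.36 in NOD (adjusted p = 0.0966). It read 6.46 and 6.42 in NOD, 6.70 and 6.41 in NOD.scid, 5.98 and 6.20 for BDC2.5/NOD, and 6.22 and 5.99 in BDC2.5/NOD.scid, so both groups with the transgene lay below both without it. Psma2 differed by -0.36 in NOD.scid (adjusted p = 0.177) and by -0.38 in NOD (adjusted p = 0.115). Psma6 differed by -0.39 between NOD.scid and NOD (adjusted p = 0.0777). Psma1, Psma3 and Psma5 stayed above an adjusted p of 0.05 in every comparison as well.

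Among the 6 ATPases of the regulatory particle, which unfold the substrate, Psmc6 alone was called. It read 6.75 and 6.73 in NOD, 6.30 and 6.07 in NOD.scid, 6.22 and 6.40 for BDC2.5/NOD, and 6.34 and 6.11 in BDC2.5/NOD.scid. The 2 NOD arrays lay above all 6 others, which overlapped. Against NOD it was lower in NOD.scid (-0.55, SE 0.112, adjusted p = 0.0237) and in BDC2.5/NOD (-0.43, adjusted p = 0.0373). These 2 comparisons share the NOD arrays. The first call was lost without either array of NOD or of BDC2.5/NOD, without NOD.scid replicate 2 and with only the arrays of the groups compared.

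Psmc2 had the same highest group, at 5.44 and 5.56 in NOD against 4.77 to 5.35 elsewhere, with adjusted p of 0.157 and 0.151 in those comparisons. Psmc3 differed by -0.33 in scid mice with the transgene, just outside the threshold (adjusted p = 0.0539). Psmc1, Psmc4 and Psmc5 ranged over 0.35, 0.19 and 0.26 log2 units. The base subunits Psmd1 and Psmd2, which dock ubiquitin carriers, and Psmd4, a ubiquitin receptor, were called in no comparison. Psmd1 differed in scid mice both without the transgene (-0.23, adjusted p = 0.289) and with it (-0.26, adjusted p = 0.12).

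The lid, which carries the enzyme that removes ubiquitin, held 3 called genes of 8, where 18.2% of all genes were called in some comparison. Psmd6, a structural lid subunit, read 6.95 and 7.03 in NOD, 6.95 and 6.90 for BDC2.5/NOD, 6.37 and 6.27 in NOD.scid, and 6.55 and 6.44 in BDC2.5/NOD.scid. All 4 scid arrays lay below the 4 others, and NOD overlapped BDC2.5/NOD. In scid mice Psmd6 was 1.59-fold lower without the transgene (-0.67, SE 0.0893, adjusted p = 0.00191) and 1.35-fold lower with it (-0.43, SE 0.0893, adjusted p = 0.0104). The transgene made a difference of 0.18 in NOD.scid (adjusted p = 0.347) and -0.06 in NOD (adjusted p = 0.754), and the interaction was 0.24 (adjusted p = 0.39). Between single arrays of low and then of high actin control, the difference without the transgene was -0.76 and -0.58. The call with the transgene was lost without either BDC2.5/NOD array or without BDC2.5/NOD.scid replicate 2.

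Psmd7, the partner of the deubiquitinating subunit, read 7.24 and 7.22 for BDC2.5/NOD, 6.95 and 7.04 in NOD, 6.90 and 6.88 in NOD.scid, and 6.85 and 6.69 in BDC2.5/NOD.scid. No group overlapped another. In scid mice with the transgene it was 1.38-fold lower (-0.46, SE 0.0894, adjusted p = 0.00733), a call lost without the same 3 arrays as for Psmd6. Psmd11, a lid scaffold subunit, read 6.00 and 5.97 in BDC2.5/NOD.scid, against 6.28 to 6.46 on the other 6 arrays. It was lower with the transgene in NOD.scid (-0.39, SE 0.0871, adjusted p = 0.0172) and, with BDC2.5/NOD.scid set against BDC2.5/NOD, lower there too (-0.32, adjusted p = 0.0385), comparisons that share the BDC2.5/NOD.scid arrays. Its other 2 probe sets gave -0.10 and -0.20 in the first and -0.03 and -0.006 in the second, and were not called. Both calls were lost without either BDC2.5/NOD.scid array, the first also without NOD.scid replicate 1 and the second without either array of NOD or of BDC2.5/NOD. Averaging the 3 probe sets ended both calls (-0.23, adjusted p = 0.131, and -0.12, adjusted p = 0.447). The first was also lost with only the arrays of the groups compared, and the second with quantile normalization, with a variance prior without a trend and with a term for the title number.

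The deubiquitinating subunit itself, Psmd14, read 3.57 to 4.17 on the 8 arrays, and its groups differed by less than the test could call. Psmd12 was lowest in BDC2.5/NOD.scid, at 4.24 and 3.92, with a difference of -0.43 from BDC2.5/NOD just outside the threshold (adjusted p = 0.0582). Psmd3, Psmd8 and Psmd13, also lid subunits, had adjusted p of at least 0.211 in every comparison.

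**Figure D5:**
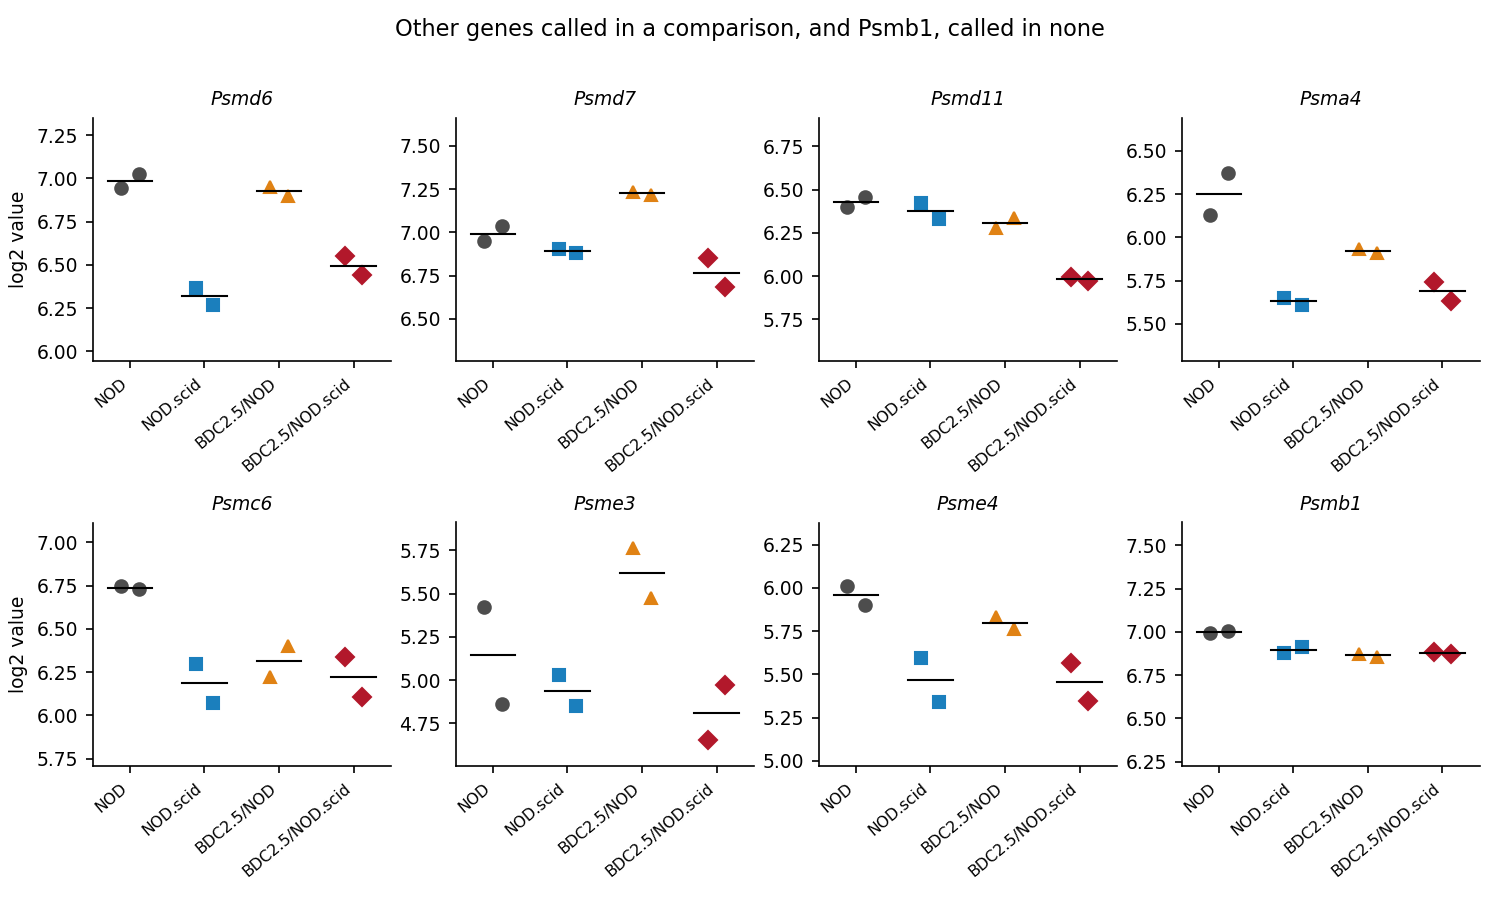
The panels give the log2 value on each array by group for the 7 other genes called in a comparison, with Psmb1, called in none, for reference. Points are arrays, bars are means of 2 arrays, and all panels span the same number of log2 units. The 4 scid arrays lie below the 4 others for Psmd6, and the 2 NOD arrays lie above the 6 others for Psmc6.

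The assembly chaperones, which help build the particle and then leave, were not called. Psmd5, Psmd9 and Psmd10, which pair with ATPases of the base, ranged over 0.14, 0.35 and 0.49 log2 units. Of the core chaperones, Psmg1 and Psmg2, which bind each other and start the alpha ring, were lowest in BDC2.5/NOD.scid, at 5.09 and 4.82 and at 3.53 and 3.19. Their differences from BDC2.5/NOD were -0.30 (adjusted p = 0.13) and -0.29 (adjusted p = 0.165). Psmg3 and Psmg4 ranged over 0.29 and 0.21 log2 units.

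The alternative activators, which open the core without ubiquitin, were each called lower in 1 of the scid comparisons. Psme3 read 5.76 and 5.48 for BDC2.5/NOD, 5.42 and 4.86 in NOD, 5.03 and 4.85 in NOD.scid, and 4.65 and 4.97 in BDC2.5/NOD.scid. BDC2.5/NOD lay above all other arrays, the NOD pair was far apart, and the remaining groups overlapped. Psme3 was 1.75-fold lower in scid mice with the transgene (-0.81, SE 0.172, adjusted p = 0.0122), a call lost without BDC2.5/NOD replicate 1 or BDC2.5/NOD.scid replicate 1. Psme4, an activator that acts on histones, read 6.01 and 5.90 in NOD, 5.83 and 5.76 for BDC2.5/NOD, 5.60 and 5.34 in NOD.scid, and 5.57 and 5.35 in BDC2.5/NOD.scid. All scid arrays, 4 in number, lay below the 4 others. It was lower in scid mice without the transgene (-0.49, SE 0.113, adjusted p = 0.0449), and with it the difference was -0.34 (adjusted p = 0.0941). The call was lost without either array of NOD or of BDC2.5/NOD, without NOD.scid replicate 2, with a variance prior without a trend (adjusted p = 0.0511) and with only the arrays of the groups compared (adjusted p = 0.11). The left-out activator subunit Psme1 read 5.60 and 5.36 in BDC2.5/NOD.scid and 4.69 and 4.58 for BDC2.5/NOD, and it was higher by 0.84 (adjusted p = 0.000375). Its other probe set, with a mean of 2.84 over the arrays, gave 0.11 in that comparison and was not called (adjusted p = 0.664). Psmc3ip and Psme3ip1, matched by name only, were called in no comparison.

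Other proteins that work with the proteasome were measured for 7 of 12 listed genes. Sem1, the smallest lid subunit, read 7.20 and 6.94 in NOD and 6.26 on both BDC2.5/NOD arrays, and it fell by 0.81 with the transgene in NOD (adjusted p = 0.00112). Akirin2, which brings proteasomes into the nucleus, fell by 0.38 there (adjusted p = 0.0292). Txnl1, a redox protein bound to the regulatory particle, read 4.30 and 4.01 in BDC2.5/NOD.scid against 4.49 to 4.93 elsewhere. It fell by 0.53 with the transgene in NOD.scid (adjusted p = 0.0424) and differed from BDC2.5/NOD by -0.77 (adjusted p = 0.0047).

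Of 9 listed regulators of proteasome gene transcription, 7 were measured. Nfe2l1, the factor that raises proteasome genes when the proteasome is blocked, rose by 0.58 with the transgene in NOD (adjusted p = 0.00374) and, in BDC2.5/NOD.scid against BDC2.5/NOD, was lower (-0.50, adjusted p = 0.00902). Those comparisons share the BDC2.5/NOD arrays. Nfe2l2, its relative in the oxidative stress response, was lower with the transgene both in NOD.scid (-0.40, adjusted p = 0.0381) and in NOD (-0.45, adjusted p = 0.0188). Bach1, a repressor at the same element, fell by 0.63 in NOD (adjusted p = 0.0114).

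Upstream of the proteasome, ubiquitin is activated and passed to substrates. Of the 22 activating and conjugating enzymes measured (29 listed), limma called 2 lower with the transgene in NOD.scid (Ube2d3 and Cdc34), and 3 lower and 1 higher in NOD (lower Ube2d3, Ube2g1 and Ube2r2, higher Ube2s). It called 0 in scid mice without the transgene (3 at an unadjusted p under 0.05, all lower) and 1 lower with it (Ube2n). The shares called lower were 9.09% with the transgene in NOD.scid, 13.6% with it in NOD and 4.55% in scid mice with the transgene, where 4.51%, 4.56% and 6.08% of all genes were called lower. Ube2d3, a broad conjugating enzyme, was lower with the transgene in NOD.scid (-0.54, adjusted p = 0.0176) and in NOD (-0.44, adjusted p = 0.0446). Of 11 shuttle and p97 genes measured (18 listed), the shuttle Ubqln1 rose by 0.52 with the transgene in NOD (adjusted p = 0.0123). Ubqln1 and Ubqln2 were lower in BDC2.5/NOD.scid when set against BDC2.5/NOD, with differences of -0.48 (adjusted p = 0.0183) and -0.58 (adjusted p = 0.0312). The shares of the 11 genes were 9.09% called higher in the first comparison and 18.2% called lower in the second. Of all genes, 4.16% and 6.08% were called so.

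The route that returns proteins from the endoplasmic reticulum had 14 of 21 listed genes measured. In scid mice with the transgene 8 of 14 were called lower and 0 higher (10 lower and 0 higher unadjusted), and with the transgene in NOD 5 were called higher and 1 lower. Of all genes, 6.08% were called lower and 3.16% higher in the first comparison (14.5% and 7.88% unadjusted), and 4.16% higher and 4.56% lower in the second. The acinar marker Sycn differed by -0.83 in the first (adjusted p = 0.000122) and by 0.95 in the second (adjusted p = 5.36e-05), the 1 of 6 acinar markers called in each. Its part in these values was not tested. Herpud1, a membrane scaffold of this route, was higher with the transgene in NOD.scid (0.98, adjusted p = 0.000304) and in NOD (0.86, adjusted p = 0.000993). It was lower in scid mice without the transgene (-1.08, adjusted p = 0.000338) and with it (-0.96, adjusted p = 0.000335). Edem3, which trims sugars on faulty proteins, was lower in scid mice without the transgene (-0.74, adjusted p = 0.00427) and with it (-0.81, adjusted p = 0.000719). Downstream of the proteasome, 1 of 8 cytosolic peptidases was called higher with the transgene in NOD, Thop1 (0.54, adjusted p = 0.011). That is 12.5%, against 4.16% of all genes. In scid mice with the transgene 1 of 8 was called lower, against 6.08% of all genes.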

How the data were processed

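Total RNA of whole pancreas was labelled by the standard Affymetrix procedure, per the labels' protocols. The authors deposited 1 table of log2 values for 12488 probe sets on 8 arrays. The base was inferred from the range of the values. Normalization, probe summary, software and genome build were not given in the sources used here. No scaling was added. After removal of 66 controls, 12422 probe sets were tested. The platform annotation gave 10833 of them 1 symbol, 396 several and 1193 none. Gene IDs matched the GRCm38.p6 table for 10817, and 0 symbols changed.

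Groups came from the sample titles. Group means were fitted with limma 3.58.1 in R 4.3.3 (variance trend, two-sided, Benjamini-Hochberg over all probe sets, threshold 0.05), with 4 residual and 8.07 prior degrees of freedom. Tested on simulated data for the transgene in NOD (12422 probe sets, 5 simulations), the fit recovered 2.8% of changes of 0.3 log2. It recovered 42.4% of changes of 0.5 log2 and 90.8% of changes of 1, and 4.40% of its calls were false. The number of arrays limits the precision. Tables used pandas 2.3.3 and plots matplotlib 3.10.9. Alternatives covered scaling, the variance prior, removal of dim probe sets, the arrays fitted, a term for the title number, the actin control and each array left out. Leaving in only the arrays of low actin control was chosen after seeing the data. The text names every proteasome gene that was called, the catalytic and interferon-induced subunits, and called genes of related lists. The genes, lists and tests were chosen with earlier results of these data known. Promoter sequences are RefSeq's, with an entry for 35 of the 42 genes.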

Additional observations from a re-analysis of the deposited data

Results flagged for a closer look

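For 12 genes or probe sets named here outside the marker lists, the effect of the transgene differed between NOD.scid and NOD. The test was limma's interaction, with 2 arrays per group. It called 2.9% of all genes lower and 2.48% higher, and the related genes were named because they were called in a comparison. Among the proteasome genes the difference was -0.91 for Psmb3 (adjusted p = 0.00401), from -0.91 in NOD.scid and -0.0025 in NOD. The second probe set of Psmb5 gave -0.82 (adjusted p = 0.0471), while its representative set gave 0.14 (adjusted p = 0.699).

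Of the 4 interferon-induced genes, 3 were called the other way. They were Psmb8 at 1.37 (adjusted p = 0.00178), Psmb9 at 1.14 (adjusted p = 0.00185) and Psme1 at 0.72 (adjusted p = 0.0173). Psmb10 had the direction of Psmb3, at -0.49, and was not called (adjusted p = 0.061). Psmb8 and Psmb9 rose in NOD.scid, whereas for Psme1 the effect was 0.25 in NOD.scid and -0.47 in NOD. The other probe set of Psme1, of low mean (2.84), gave an interaction of -0.008 (adjusted p = 0.988), from 0.22 in NOD.scid and 0.23 in NOD.

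Of the related genes, the lid subunit Sem1 differed by 0.67 (adjusted p = 0.0374), from -0.14 in NOD.scid and -0.81 in NOD. Txnl1 differed by -0.88 (adjusted p = 0.0246), from -0.53 and 0.35. The chaperone Dnajb9 differed by -1.15 (adjusted p = 0.0127) and the lectin Os9 by -0.80 (adjusted p = 0.0199), both of the route back from the endoplasmic reticulum, with effects in NOD of 0.95 and 0.79. The peptidase Thop1 differed by -0.81 (adjusted p = 0.0118), the signalosome subunit Gps1 by -0.59 (adjusted p = 0.0156) and the chaperonin subunit Cct5 by 0.65 (adjusted p = 0.0181). All of these use the BDC2.5/NOD arrays, whose BioB control stood apart.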

How the results depend on the processing

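Of the 15 calls of proteasome genes, 4 held under every alternative tried: Psmb3 and Psmb6 with the transgene in NOD.scid, Psmb3 in the interaction, and Psmd6 in scid mice without the transgene. No named gene that was called changed sign. Of 1512 values of named genes under an alternative, 1360 kept their side of the threshold and their direction, 82 lost a call, 33 gained one, and 37 were uncalled values that changed sign. The count of called proteasome genes with the transgene in NOD.scid (4) was 2 with only the arrays of the groups compared, 7 with a term for the actin control, 2 with the probe sets of a gene averaged, and 2 to 6 with 1 array left out. With the transgene in NOD (1) it was 2 after quantile normalization, 3 with array medians centred, 2 above the median level, 6 with only the arrays compared, 5 with the actin term, 10 on the arrays of low actin control and 0 to 2 with 1 array left out. In scid mice without the transgene (5) it was 3 with only the arrays compared, 8 with the actin term, 11 on the low actin arrays and 1 to 6 with 1 left out. In scid mice with it (4) it was 7 above the median level, 8 on the low actin arrays and 0 to 5 with 1 left out. For the interaction (1) it was 2 above the median level, 3 with the actin term, 11 on the low actin arrays, 2 with probe sets averaged and 1 to 2 with 1 left out. The low actin fit takes its spread from the BDC2.5/NOD pair alone, and a lone array left in a group was assumed to vary like the other groups.

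The replicate block, a term for the title number, gave 0 calls with the transgene in NOD and changed the other counts by at most 1. Titles number only the first array of each group, so the number pairs nothing known. The median difference of the 42 genes stayed below 0 with 1 array left out: -0.126 to -0.041 with the transgene in NOD.scid, -0.101 to -0.036 in NOD, -0.114 to -0.026 in scid without the transgene, -0.203 to -0.092 with it, and -0.114 to -0.0015 for the interaction. It was -0.049 after quantile normalization in scid with the transgene, and -0.141 on the low actin arrays without it. For the interaction it was -0.046 with the actin term and 0.022 on the low actin arrays. The causes were not tested.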

Other observations

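The COP9 signalosome, which resembles the lid of the regulatory particle and switches off cullin ubiquitin ligases, had 9 of 9 genes measured. With the transgene in NOD.scid limma called 2 lower, Gps1 (-0.42, adjusted p = 0.00938) and Cops6 (-0.57, adjusted p = 0.00951), and 0 higher (2 lower and 0 higher unadjusted), against 4.51% of all genes called lower. In scid mice with the transgene 1 was lower, Gps1 (-0.57, adjusted p = 0.00124), against 6.08% of all genes.

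The CCT chaperonin, a barrel that folds actin and tubulin, had 8 of 8 genes measured. In scid mice without the transgene 2 were called lower, Cct5 (-0.71, adjusted p = 0.00208) and Cct4 (-0.58, adjusted p = 0.0211), and 6 of 8 were lower at an unadjusted p under 0.05. Of all genes, 1.9% were called lower there and 8.4% were lower unadjusted. Cct5 and Cct6a were lower with the transgene in NOD (-0.40, adjusted p = 0.0236, and -0.36, adjusted p = 0.0297). Cct3 was lower in scid mice with the transgene (-0.71, adjusted p = 0.00407). In these last 2 comparisons 4.56% and 6.08% of all genes were called lower.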
